A study of Sus scrofa with 75 samples.

Results

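The annotation deposited with this pig study holds 5100 genes that have at least 1 transcript with 2 or more exons and no coding sequence (CDS) line on any transcript, among 35936 genes in all. They are called noncoding spliced genes below, where noncoding means only that the annotation gives them no CDS. Genes of chromosome MT were left out, and no measured value entered the choice. For comparison the annotation holds 22379 genes with a coding sequence and 8432 genes with 1 exon and no coding sequence. RNA came from heart, kidney, liver, lung and spleen of adult male pigs aged 12 months, in groups coded BS and DSE in the sample titles. The labels give no breed, treatment or genotype behind these codes, and the series title speaks only of local pigs from China. The 40 short-read RNA libraries, depleted of ribosomal RNA, came from 5 organs of 4 BS and 4 DSE animals. PacBio sequencing of full-length transcripts gave 10 libraries, 1 for each pig group and organ.

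Spliced transcripts without a coding sequence include long noncoding RNAs, which can act in the nucleus on chromatin or on neighbouring genes. They also include host genes, whose introns or exons hold small RNAs. Small nucleolar RNAs (snoRNAs) guide chemical changes of ribosomal RNA and are cut out of the host transcript, while microRNAs repress messenger RNAs. Annotations place pseudogenes and broken models of coding genes in the same class when no reading frame can be assigned.

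Short-read levels were deposited as TPM, a level per transcript length relative to the library total, and the depth behind them is unknown. The labels say that samples of different organs carry the same animal name, and no label gives a batch. Every listed heart, kidney, liver, lung and spleen marker gene that was measured was highest in its own organ. The liver library of BS animal 4 held 249.7 TPM of cardiac muscle markers against a liver median of 22.3 TPM. The kidney library of DSE animal 1 held 958.1 TPM of hepatocyte markers against a kidney median of 56.7 TPM. Erythroid markers reached 13781 TPM in the lung library of BS animal 4 against a lung median of 2298 TPM. In bulk organs, fewer cells of a type and less RNA per cell cannot be told apart.

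The gene models were short and simple beside those of spliced coding genes. Of the 5100 genes, 3420 (67.1%) had 2 exons at most, 1014 (19.9%) had 3 and 666 (13.1%) had 4 or more. A single transcript was annotated for 4591 (90.0%). The spliced length of the longest transcript had a median of 3328 nt, against 3134 nt for 19871 spliced coding genes. The gene span differed more, with a median of 5025.5 bp against 20759 bp. The longest gap between exons, which is the longest intron of the model, had a median of 224 bp against 7785 bp. It was under 200 bp in 2445 noncoding spliced genes (47.9%) and in 1026 coding genes (5.16%). The distribution of gap lengths had a peak at 70 to 150 bp, where the coding genes had few members.

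**Figure D1:**
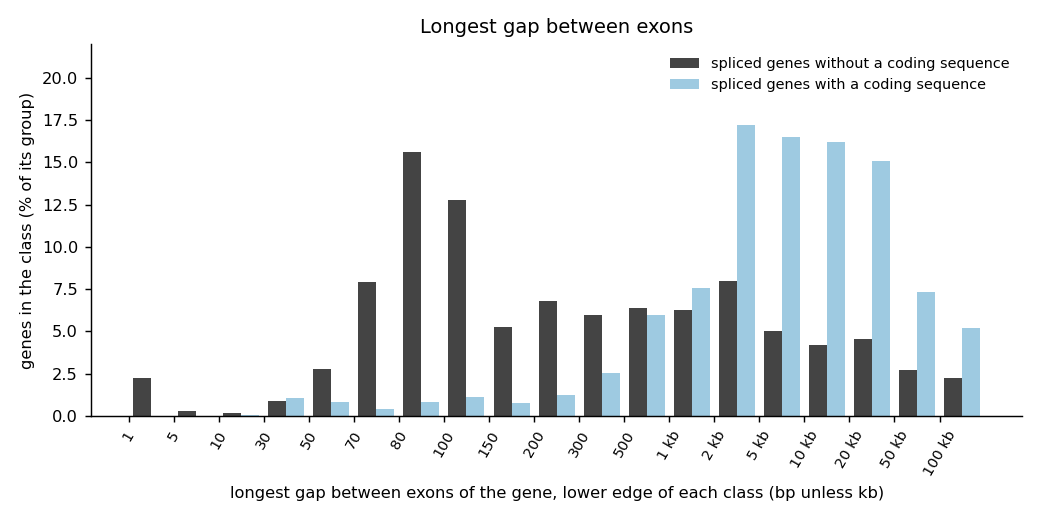
Percentage of genes (vertical axis) by the longest gap between exons (horizontal axis, class edges in bp or kb, unequal class widths) for 5100 noncoding spliced genes (dark) and 19871 spliced coding genes (light). The class from 80 to 100 bp holds 15.6% of the noncoding spliced genes, and the classes of the coding genes are highest from 2 kb to 50 kb.

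A gene entered the tests below when its mean was at least 1 TPM in at least 1 organ of 1 pig group, which 698 of the 5100 genes did (13.7%), against 70.3% of coding genes. Among models with a gap of at least 30 bp, the share that passed was larger where the longest intron was longer. Of 2308 genes whose longest gap was at least 30 bp and under 200 bp, 113 passed this filter (4.90%), and none had a long-read transcript. Of 977 genes with a longest intron from 200 bp to under 1 kb, 142 passed (14.5%) and 9 had a long-read transcript. Of 1678 genes with an intron of 1 kb or more, 418 passed (24.9%) and 67 had a long-read transcript. Of the 137 genes with no gap of 30 bp or more, 25 passed (18.2%) and none had a long-read transcript. Transcripts built from long reads were annotated in all for 76 noncoding spliced genes (1.49%) and for 7959 spliced coding genes (40.1%).

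In 137 genes (2.69%) no gap between exons reached 30 bp, which is too short for an intron of a mammalian gene. RefSeq genes of the same assembly were matched by reciprocal overlap of at least 50% of the span, without regard to strand. Of these 137 genes, 33 matched a protein-coding gene, 16 a pseudogene and 0 a long noncoding RNA. Among them were ENSSSCG00000031657 (chromosome 2, 59531154 to 59532196 on susScr11), at the place of RefSeq JUND, a subunit of the AP-1 transcription factor, and ENSSSCG00000023868, which the annotation itself names C3AR1, the receptor for complement fragment C3a. Both models have 2 exons with a gap of 2 bp between them. Of the other 4963 genes, 412 matched a RefSeq long noncoding RNA, 110 a protein-coding gene and 4432 no RefSeq gene by this rule. A RefSeq gene named below is such a match by position. The gene with the most exons, 71, was ENSSSCG00000011556, at the place of RefSeq IL17RE, a cytokine receptor subunit. It was highest in lung, at 0.690 ± 0.180 TPM (SD, n = 8). Single genes whose models have no intron are marked where they are described. Shares and counts over all noncoding spliced genes include such models.

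Most noncoding spliced genes lay outside coding genes, and those near a coding start were measured most often. A coding gene overlapped on the same strand in 219 cases (4.29%) and on the other strand in 231 (4.53%). Another 405 (7.94%) started within 5 kb of the start of a coding gene and ran away from it (divergent), 1148 (22.5%) lay otherwise within 10 kb, 1360 (26.7%) within 50 kb and 1724 (33.8%) farther away. The nearest coding gene of the 4637 genes without overlap was at a median distance of 26.0 kb. Of the divergent genes, 31.9% passed the filter on low values, against 24% otherwise within 10 kb, 11.3% within 50 kb and 4.12% beyond. Counted from start site to start site in place of gene bodies, 82.0% of genes kept the same neighbour.

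Levels were low. Of the 5100 genes, 4481 had a value above 0 in at least 1 library, but only 1755 (34.4%) reached an organ mean of 0.1 TPM and 622 (12.2%) a mean of 1 TPM. A mean of 10 TPM was reached by 125 genes (2.45%) and 100 TPM by 9. Among spliced coding genes 75.8% reached 1 TPM, and among single-exon noncoding genes 4.64%. The level was concentrated in few genes, since the 10 highest held 28.7% of the summed TPM of all noncoding spliced genes in kidney and 35.1% in lung, with the other organs between.

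Lung and spleen libraries carried the largest share of TPM on noncoding spliced genes, and heart and liver the smallest. In lung the share had a lowest value of 0.329%, a median of 0.433% and a highest of 0.502% of all TPM. In spleen these were 0.344%, 0.402% and 0.463%, and the ranges of both organs overlapped. Kidney libraries lay between, from 0.250% over 0.288% to 0.310%. Liver ran from 0.170% over 0.185% to 0.202% and heart from 0.150% over 0.168% to 0.207%, again with overlap. The means were 0.431 ± 0.0514% in lung, 0.404 ± 0.0438% in spleen, 0.284 ± 0.0185% in kidney, 0.184 ± 0.0120% in liver and 0.174 ± 0.0176% in heart (SD, n = 8 each). Organs differed by a permutation test that exchanged organ labels within animals (F = 109.0, p = 1e-05, the smallest that 100000 resamples can give). Genes of chromosome MT took a large part of the total in heart. As a share of the TPM off chromosome MT heart rose to 0.282 ± 0.0234%. Liver, in place of heart, then had the lowest mean, 0.203 ± 0.0149% (F = 68.0, p = 1e-05 by the same permutation test). These shares include models without an intron. With only genes that have a gap of at least 30 bp, chosen after seeing the data, lung and spleen came closer. Their shares of all TPM were then 0.380 ± 0.0504% in lung and 0.373 ± 0.0457% in spleen. Kidney had 0.263 ± 0.0179%, liver 0.174 ± 0.0121% and heart 0.165 ± 0.0157% (SD, n = 8 each).

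The number of noncoding spliced genes at 1 TPM or more followed the same order of organs. It was 390.9 ± 51.7 in lung, 369.8 ± 41.6 in spleen, 335.4 ± 20.4 in kidney, 233.1 ± 15 in liver and 231.3 ± 10.9 in heart (SD, n = 8 each; F = 56.6, permutation p = 1e-05). Lung of BS animal 2 was the lowest lung library on both measures, with 284 genes and 0.329% of TPM. Noncoding spliced genes made up 2.76 ± 0.270% of all genes at 1 TPM or more in spleen and 2.72 ± 0.303% in lung, so this share did not keep the order. It was 2.53 ± 0.145% in kidney, 2.02 ± 0.134% in liver and 1.95 ± 0.0676% in heart (SD, n = 8). Coding genes at 1 TPM or more were most numerous in lung too, at 13679.5 ± 284.5, against 11454.3 ± 173.9 in heart and 11203.3 ± 240.0 in liver. BS and DSE did not differ in the share of TPM in any organ by the exact permutation test of 4 against 4 animals, whose smallest possible two-sided p is 0.0286. The largest gap relative to its spread was in heart, with 0.186 ± 0.0164% in BS and 0.162 ± 0.00840% in DSE (SD, n = 4; exact p = 0.0571, 0.286 adjusted over 5 organs). As a share of TPM off chromosome MT, the BS minus DSE difference in heart was 0.00638 percentage points (exact p = 0.714), and the smallest p was that of liver (exact p = 0.286, 0.771 adjusted).

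**Figure D2:**
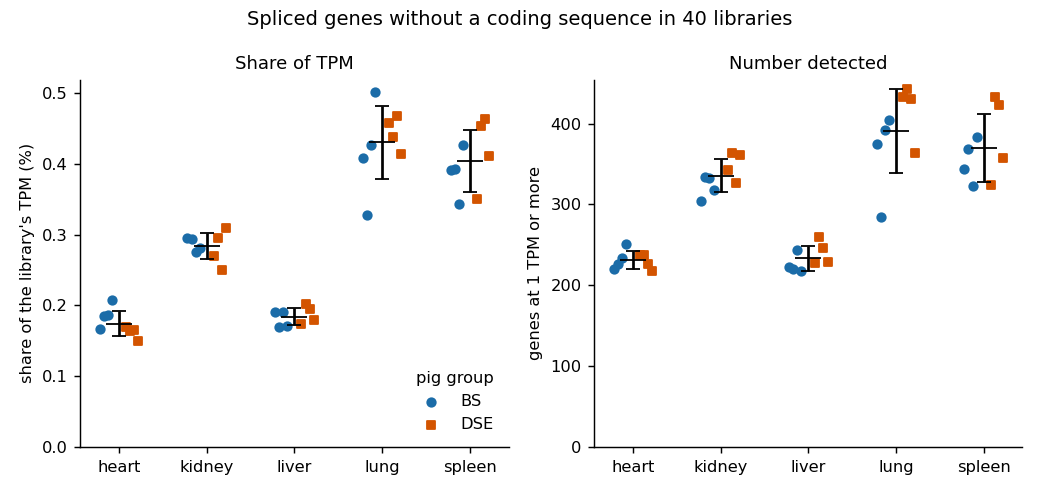
Left: share of each library's TPM on noncoding spliced genes (%). Right: number of these genes at 1 TPM or more. Points are libraries (circles BS, squares DSE), and bars give mean ± SD over 8 libraries. Lung and spleen are highest and overlap, kidney is between, and heart and liver are lowest. Models without an intron are included.

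Specificity for an organ was described with tau, an index from 0 for equal levels in all 5 organs to 1 for a gene found in 1 organ, on organ means of log2(TPM + 1). Its median was 0.594 over the 698 tested noncoding spliced genes and 0.338 over 15729 tested coding genes. The groups differ in level, so tau was also set side by side within bands of the highest organ mean. From 1 to 5 TPM the medians were 0.626 for 407 noncoding spliced genes and 0.638 for 2544 coding genes. From 5 to 20 TPM they were 0.463 (151 genes) against 0.339 (4782), and above 20 TPM 0.383 (64) against 0.256 (8130). At the lowest level the classes had nearly the same median, and at higher levels the noncoding spliced genes had the larger one. At the lowest level tau was at least 0.8 in 31.2% of noncoding spliced genes and 25.7% of coding genes. Levels still differed within the bands. The highest organ mean had medians of 1.92 against 2.60 TPM, 8.71 against 11.3 TPM and 35.8 against 54.0 TPM from the lowest band up. Genes are not replicates, and no test was made.

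A gene was called enriched in an organ when it was at least 4-fold above each of the other 4 organs on log2(TPM + 1) and the largest of the 4 limma p-values passed 0.05 after Benjamini-Hochberg adjustment over all 16905 genes tested. This held for 49 of the 698 noncoding spliced genes (7.02%), against 10.4% of all genes tested. There were 12 for liver, where 2.14% of all genes tested were called, 11 for kidney (2.50%), 11 for spleen (1.44%), 8 for lung (2.57%) and 7 for heart (1.70%). As a share of the 698 genes, the count was above the share of all genes in spleen and under it in the other organs (1.72% for liver and 1.15% for lung). No test of these differences was made. The highest organ mean had a median of 2.40 TPM over the 698 genes and 21.3 TPM over tested coding genes. At 2.40 TPM a 4-fold difference cannot be reached on log2(TPM + 1), so lower shares are not read as a result about these genes. The counts depended on the scale of the values, and a pseudocount of 0.1 TPM raised them to between 22 in heart and 40 in liver and spleen. Scaling the libraries by median ratios moved the median of all genes by 0.78 for liver, -0.25 for kidney, -0.43 for spleen, -0.69 for lung and 0.66 for heart (log2), and gave 21, 8, 11, 2 and 15 enriched genes in that order. No share of all genes is given for these alternative settings, so their counts are not set against other genes. The genes described next are the 5 with the largest fold over the next organ in each organ. Their direction and a limma adjusted p under 0.05 held under every alternative tried, but with median-ratio scaling 3 of the 5 lung genes fell under 4-fold. The fit shares 1 estimate of the spread over organs, so SE and p are narrow for genes near 0 in most organs.

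Heart held a gene found in no other organ. ENSSSCG00000043612 (chromosome 13, 93051963 to 93053657), 54.3 kb from P2RY1, which codes for a receptor for ADP, was listed at 0 in all 32 other libraries. In heart it ran from 0.946 over a median of 12.5 to 30.7 TPM, and this spread lay between the pig groups, as given further on. ENSSSCG00000062491 (chromosome 14, 71387749 to 71394521) lies 0.724 kb from the end of MYPN, which codes for a protein of the muscle Z-disc, on the opposite strand. It ran from 8.76 over 10.4 to 11.4 TPM in heart and reached at most 0.074 TPM elsewhere, in the liver library of BS animal 4 with its excess of cardiac markers. Its log2 difference to the next organ, liver, was 3.46 ± 0.048 (SE; limma adjusted p = 4.23e-35). MYPN itself was enriched in heart, at 26.9 TPM.

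The other heart genes varied more between animals or were present at low levels elsewhere. ENSSSCG00000048505 (chromosome 15, 140375433 to 140382228; a RefSeq long noncoding RNA) ran from 2.44 over 19.9 to 65.2 TPM in heart and was at most 0.419 TPM in any other library. ENSSSCG00000055583, downstream of EMC10, a subunit of the endoplasmic reticulum membrane complex, had 43.0 ± 21.0 TPM in heart and 5.60 ± 3.13 TPM in lung (SD, n = 8). EMC10 was highest in kidney, so this pair went apart. ENSSSCG00000041566, downstream of PPP1R3G, which directs protein phosphatase 1 to glycogen, had 10.4 ± 2.89 TPM in heart and 1.07 ± 0.424 TPM in spleen, the next organ. PPP1R3G was highest in heart too, at 4.97 TPM.

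A gene beside TGFA was called lower in heart than in each other organ. ENSSSCG00000055468 lies 0.663 kb downstream of TGFA, a ligand of the epidermal growth factor receptor, and ran from 0 over 0.0594 to 0.186 TPM in heart (0.710% of all genes tested were called lower there). The lowest library of any other organ was at 2.10 TPM in liver, so the ranges did not overlap. TGFA moved with it over the 40 libraries (Pearson r = 0.96, libraries that share the organ differences).

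In kidney, both genes that lay beside a listed kidney transcription factor at 1 TPM or more were among the 5. ENSSSCG00000042134 (chromosome 3, 49811535 to 49862289, 7 exons) starts 3.87 kb from POU3F3, a factor of nephron development, and runs away from it. It ran from 4.53 over 7.32 to 11.3 TPM in kidney and reached at most 0.158 TPM elsewhere (log2 difference to liver 2.99 ± 0.073, SE; limma adjusted p = 7.28e-28). ENSSSCG00000048917 (chromosome 14, 127630458 to 127649848; a RefSeq long noncoding RNA) is divergent from EMX2, a factor of urogenital development, at 0.840 kb. It ran from 4.75 over 6.66 to 7.82 TPM in kidney and was at most 0.0699 TPM elsewhere. POU3F3 and EMX2 were enriched in kidney themselves, at 37.2 and 24.7 TPM, and each pair had r = 0.99 over 40 libraries.

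ENSSSCG00000059456 lies 0.160 kb downstream of an unnamed coding gene that was enriched in kidney as well, and had 16.0 ± 6.03 TPM there (SD, n = 8). It was also present in lung of all 4 DSE animals, at 0.407 to 5.97 TPM, and at 0 in lung of all 4 BS animals. The remaining kidney genes have no intron of 30 bp. ENSSSCG00000024459, 102.9 kb from HS6ST3, a heparan sulfate sulfotransferase, ran from 5.87 over 7.62 to 8.97 TPM in kidney and was listed at 0 in all but 1 library elsewhere. ENSSSCG00000051419, a model of 177 nt inside RECQL5, a DNA helicase gene, on its other strand, had 47.8 ± 17.8 TPM in kidney and was listed at 0 in every spleen library.

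Of the 5 liver genes, only the neighbour of NNMT had a nearest coding gene that was itself enriched in liver. ENSSSCG00000056458 (chromosome 9, 41855179 to 41858034) lies 12.9 kb upstream of NNMT, which methylates nicotinamide. It ran from 20.6 over 42.3 to 57.9 TPM in liver and reached at most 0.627 TPM elsewhere (log2 difference to lung 5.15 ± 0.13, SE; limma adjusted p = 7.54e-28). NNMT was enriched in liver at 998.3 TPM. ENSSSCG00000044986 (chromosome 17, 51923792 to 51930137; a RefSeq long noncoding RNA) ran from 27.1 over 64.1 to 96.5 TPM in liver and from 1.46 to 3.58 TPM in lung. Its neighbour PTPN1, a tyrosine phosphatase gene 87.0 kb away, had its lowest mean in liver, at 5.72 TPM, and its highest in spleen, at 35.0 TPM. ENSSSCG00000060395 was 25.5 kb from ALPK2, a kinase gene that was itself enriched in heart. It had 15.01 ± 7.71 TPM in liver and at most 0.0929 TPM elsewhere. ENSSSCG00000053426 had 22.7 ± 14.7 TPM and ENSSSCG00000041743 8.71 ± 5.58 TPM in liver (SD, n = 8). Both match RefSeq long noncoding RNAs.

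Lung held the widest enriched gene. ENSSSCG00000044694 spans 542.7 kb of chromosome X (4623531 to 5166217), matches a RefSeq long noncoding RNA and ran from 16.2 over 32.7 to 41.0 TPM in lung, with a highest value of 2.27 TPM elsewhere. ENSSSCG00000060012 (chromosome 2, 128866689 to 128870885), 640.2 kb from its nearest coding gene GRAMD2B, ran from 29.7 over 45.6 to 73.8 TPM in lung and from 3.24 to 7.36 TPM in heart, the next organ. ENSSSCG00000056927 is convergent with NDNF, the gene of a secreted neurotrophic factor, 3.09 kb away, and had 16.9 ± 2.97 TPM in lung against 0.785 ± 0.270 TPM in heart (SD, n = 8). NDNF was enriched in lung too, at 54.0 TPM. The remaining lung genes had many exons. ENSSSCG00000038048, with 17 exons and 14.01 ± 2.7 TPM, lies at RefSeq NECAB2, a calcium-binding protein gene. ENSSSCG00000006793, with 12 exons, had 15.2 ± 17.7 TPM in lung, with 57.2 TPM in the library of BS animal 4 and 19.8 TPM in the next. Without that animal its log2 difference was 1.80, under 4-fold. With median-ratio scaling the log2 differences were 1.83 for ENSSSCG00000060012, 1.38 for ENSSSCG00000038048 and 1.71 for ENSSSCG00000006793.

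Spleen genes included a neighbour of the lymphocyte adaptor gene LAX1. ENSSSCG00000054092, convergent with LAX1 at 2.75 kb, ran from 4.91 over 8.57 to 11.1 TPM in spleen and reached at most 0.857 TPM elsewhere, and LAX1 was enriched there at 167.3 TPM. ENSSSCG00000039791 (chromosome 13, 68222804 to 68259922; a RefSeq long noncoding RNA) ran from 15.8 over 26.2 to 60.9 TPM in spleen with at most 1.38 TPM elsewhere. Its neighbour SYN2, known for a protein of synaptic vesicles, had its highest mean in spleen at only 0.759 TPM. ENSSSCG00000050648 (chromosome 18, 9545465 to 9551493) ran from 26.1 over 33.4 to 44.6 TPM in spleen and from 2.09 to 5.25 TPM in lung. ENSSSCG00000049084 had 12.1 ± 3.8 TPM in spleen (SD, n = 8). ENSSSCG00000049296 (chromosome 11, 44967982 to 44977637) had the widest range, from 1.61 over 40.1 to 103.0 TPM in spleen, and was at most 0.113 TPM elsewhere.

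**Figure D3:**
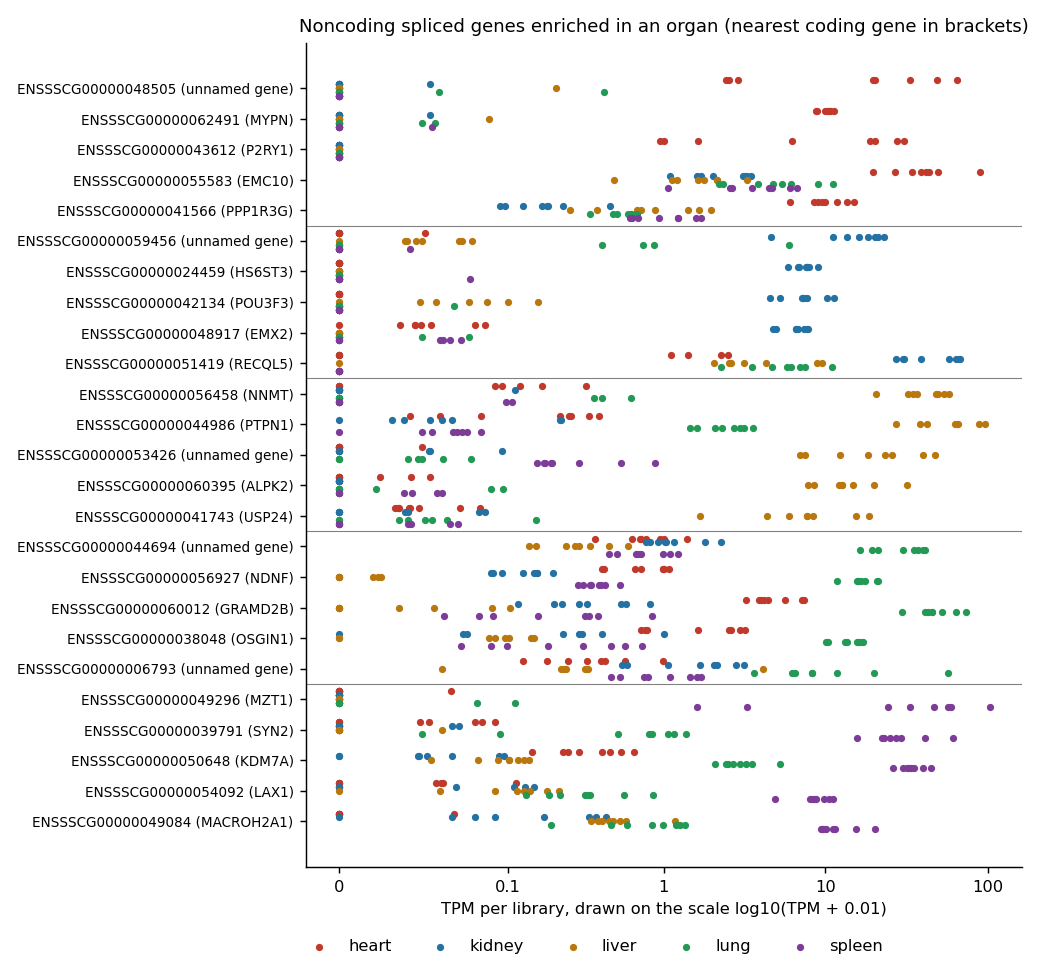
TPM per library (horizontal axis, drawn as log10 of TPM + 0.01) of the 5 genes per organ with the largest fold over the next organ, in blocks for heart, kidney, liver, lung and spleen from top to bottom. Colours give the organ of the library. In each row the libraries of the named organ lie to the right of nearly all others, and many rows have libraries at 0 in other organs.

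Transcription factors that set organ identity are often flanked by noncoding genes, so a list of such factors was used for each organ. A listed heart factor was the nearest coding gene of 18 noncoding spliced genes, a liver factor of 12, a spleen factor of 11, a kidney factor of 10 and a lung factor of 7, but most were under 1 TPM. Those that reached 1 TPM in some organ had their highest mean in the organ of the factor in 3 of 3 cases for heart, 3 of 3 for liver, 2 of 2 for kidney, 1 of 1 for lung and 1 of 2 for spleen. Of all 698 noncoding spliced genes tested, 8.6% were highest in heart, 11.2% in liver and 23.1% in kidney. Lung had 30.7% and spleen 26.5%. The cases are few, and no test of the difference was made. Only the POU3F3 and EMX2 neighbours were also called enriched. The heart genes were ENSSSCG00000035571 beside MEF2C, at 2.36 ± 1.13 TPM, ENSSSCG00000039279 beside GATA6, at 1.68 ± 0.513 TPM, and ENSSSCG00000038836 upstream of MYOCD, at 1.21 ± 0.428 TPM (SD, n = 8). MEF2C itself was highest in spleen, at 22.6 TPM. In liver, PROX1, a factor of hepatocytes and lymphatic cells, had ENSSSCG00000050221 at 9.49 ± 2.39 TPM, with 6.77 ± 4.96 TPM in kidney, and ENSSSCG00000045230 at 2.10 ± 0.814 TPM. RefSeq has a protein-coding gene at the place of ENSSSCG00000039279 and of ENSSSCG00000050221. ENSSSCG00000049934 beside FOXA2 had 2.40 ± 0.847 TPM in liver and was listed at 0 in all heart, kidney and spleen libraries. ENSSSCG00000045551 beside SOX17, a factor of endothelium and endoderm, had 1.74 ± 1.21 TPM in lung. ENSSSCG00000047374 beside NKX2-3, needed for spleen development, had 1.05 ± 0.518 TPM in spleen and was above 0 in only 1 other library. The exception was ENSSSCG00000041127, 152.8 kb from BCL6, which was highest in heart at 1.71 ± 0.562 TPM.

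Enriched genes and their nearest coding genes were then set side by side. Of 45 enriched noncoding spliced genes whose neighbour was tested, 15 (33.3%) had a neighbour enriched in the same organ. Without the genes that overlap a coding gene it was 14 of 43 (32.6%). Among enriched coding genes without overlap it was 143 of 1077 (13.3%). Over the 40 libraries the correlation with the neighbour had a median of 0.62 for 126 divergent pairs, 0.74 for 255 other pairs within 10 kb, 0.53 for 128 pairs within 50 kb and 0.24 for 54 pairs farther apart. Pairs of coding genes had medians of 0.59, 0.50, 0.46 and 0.37 in these classes. Within 10 kb the difference was widest where the ends of both genes faced each other: 103 such convergent pairs had a median of 0.81, against 0.43 for 1749 coding pairs, and 65.0% against 33.4% shared their highest organ. Divergent pairs within 10 kb had medians of 0.63 and 0.59. These values describe pairs that share libraries and organs. Whether the deposited levels used strand is not stated, so a read that runs past the end of one gene and a read from its neighbour cannot be told apart. For pairs on the same strand, such as the genes downstream of TGFA and PPP1R3G, levels with strand could not tell them apart either.

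The highest levels belonged to genes that were not specific for an organ. ENSSSCG00000044572 (chromosome 7, 23933386 to 23936456), a RefSeq long noncoding RNA that holds SNORD48 and SNORD52 and overlaps a coding gene on the other strand, had the highest mean, 215.5 TPM over all 40 libraries. It ran from 182 over 452 to 593 TPM in lung and from 42.4 over 63.9 to 105 TPM in heart, which did not overlap. The model at JUND, without an intron, followed with 118.8 TPM.

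Genes with an even level included ENSSSCG00000049610, with organ means from 25.5 TPM in spleen to 45.4 TPM in lung, and ENSSSCG00000041717, whose start is 1 bp from that of FAM199X, with 30.9 TPM in spleen to 52.3 TPM in heart. ENSSSCG00000049656, divergent from PAN3 at 0.279 kb, ran from 16.0 TPM in heart to 28.7 TPM in spleen. ENSSSCG00000061321, which holds SNORD87, ran from 9.40 TPM in spleen to 20.6 TPM in kidney. Of a list of well-known noncoding RNA genes, MEG3, an imprinted gene beside RTL1, was matched through RefSeq to ENSSSCG00000045052. It had 1.44 ± 0.726 TPM in heart, 0.955 ± 0.591 in kidney, 0.926 ± 0.522 in spleen, 0.262 ± 0.287 in lung and 0.0298 ± 0.0333 TPM in liver (SD, n = 8).

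Some noncoding spliced genes hold the genes of small RNAs. On the same strand, 27 noncoding spliced genes, 1 of them with both kinds, held 52 of the 672 annotated snoRNA and microRNA genes, and 243 coding genes held 319. The hosts were listed from the annotation after the tables had been seen. The 13 snoRNA hosts held 32 of 304 snoRNA genes, 11 of the 13 passed the filter on low values, and 9 had a long-read transcript. Their highest organ mean had a median of 34.9 TPM, against 0.0318 TPM over all 5100 genes. The median tau of the 11 was 0.227.

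Of the 11 tested snoRNA hosts, 8 had their highest mean in lung or spleen; of all 698 noncoding spliced genes tested, 30.7% were highest in lung and 26.5% in spleen, and no test of the difference was made. ENSSSCG00000057394 (chromosome 6, 85533534 to 85536154), which holds SNORA73, had 114.0 ± 40.9 TPM in lung, 103.6 ± 26.5 in spleen, 68.4 ± 18.8 in kidney, 33.9 ± 8.30 in liver and 26.6 ± 9.77 TPM in heart (SD, n = 8). ENSSSCG00000059522 (chromosome 9, 116145162 to 116149026) has the most transcripts, 14, of which 13 came from long reads. It holds SNORD24, SNORD79 and SNORD81 and is divergent from ZBTB37, the place that the snoRNA host GAS5 takes in human. It had 102.8 ± 35.0 TPM in lung, 97.3 ± 41.3 in spleen, 35.3 ± 13.4 in kidney, 27.5 ± 11.5 in liver and 17.7 ± 6.29 TPM in heart. ENSSSCG00000046461, with SNORD49A, SNORD49B and SNORD65, had 94.4 TPM in spleen, 91.8 in lung and 16.3 TPM in liver. ENSSSCG00000043175, with 8 snoRNA genes from SNORD22 to SNORD31 and divergent from SLC3A2, had 34.9 TPM in lung and 7.63 TPM in liver. The host of SNORA9, ENSSSCG00000045735, was highest in liver instead, at 56.6 ± 52.9 TPM. The host of 7 SNORD113 genes beside RTL1, ENSSSCG00000062252, stayed at or under 0.0721 TPM in every organ.

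**Figure D4:**
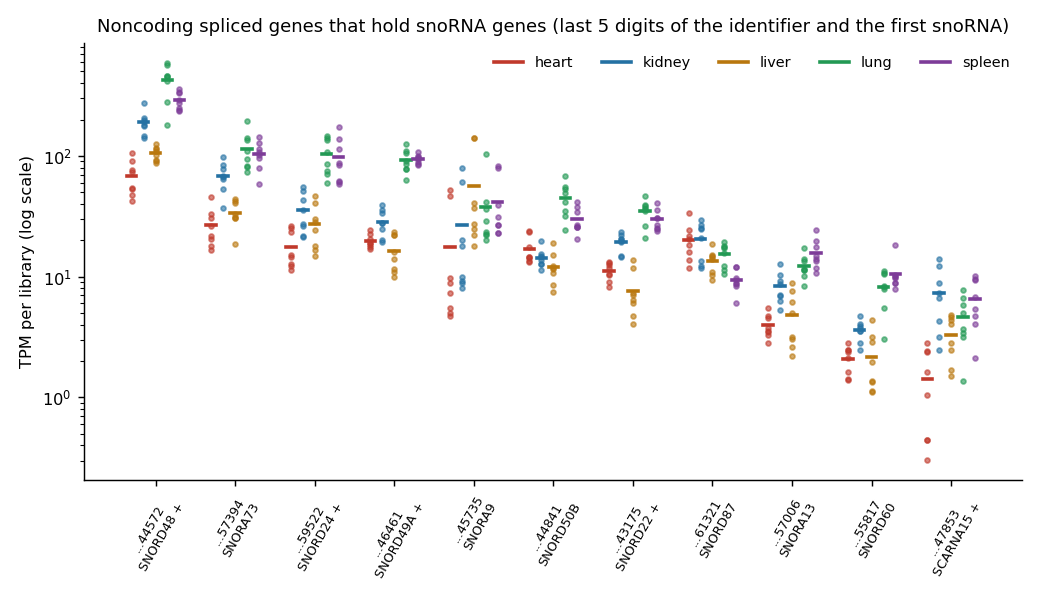
TPM per library (vertical axis, log scale) of the 11 noncoding spliced genes that hold snoRNA genes and reach a mean of 1 TPM. Points are libraries, short bars organ means, colours organs. In 8 of the 11 genes the lung or spleen mean is highest and heart or liver lowest.

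The 15 microRNA hosts were lower, with a median highest organ mean of 0.913 TPM, and 8 of them were tested. ENSSSCG00000061089, which holds the genes of miR-30a and miR-30c-2, had 26.7 TPM in lung, 21.5 in kidney and 3.73 TPM or less in spleen, liver and heart. RefSeq has a protein-coding gene at its place. ENSSSCG00000051290, with the genes of miR-15a and miR-16, had 11.2 TPM in lung, 10.8 in spleen and 1.88 TPM or less in heart, kidney and liver. ENSSSCG00000054369, with the genes of miR-193b and miR-365, had 3.30 TPM in kidney and 3.02 TPM in liver. The host of miR-192 and miR-194, microRNAs known from liver, kidney and gut, was ENSSSCG00000045555. It had 0.617 TPM in kidney, 0.320 TPM in liver and at most 0.0173 TPM in the other organs. ENSSSCG00000036894, the host of miR-802, was listed at 0 outside liver, where it had 0.312 TPM. ENSSSCG00000059823, the host of MIR2113 and the widest gene at 890.8 kb, reached only 0.0266 TPM in heart.

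Full-length reads were few. The 10 long-read libraries put between 0.0446% (BS liver, 126 of 282770 reads) and 0.143% (DSE lung, 298 of 208658 reads) of their reads on noncoding spliced genes. In all 73 genes had a read and 42 had at least 5. ENSSSCG00000044572 had the most, 356 reads, of which 106 came from DSE lung and 57 from BS kidney. ENSSSCG00000033350, at the place of RefSeq BCHE, which codes for butyrylcholinesterase, followed with 299. Of these 82 came from BS kidney, the library with the most reads (456783), and 45 from DSE heart, with 224308 reads. The short-read level of ENSSSCG00000033350 was highest in kidney, at 24.6 ± 9.43 TPM (SD, n = 8). ENSSSCG00000044841, which holds SNORD50B, had 166 reads, ENSSSCG00000049610 160 and ENSSSCG00000057394 117. Of 38 tested genes with at least 5 reads, 19 had the largest share of long reads in the organ where the short-read mean was highest, as did 4 of 5 organ-enriched genes. With 1 library for each pig group and organ these reads allow no test.

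BS and DSE pigs were compared within each organ, with a call at 2-fold or more on log2(TPM + 1) and a limma adjusted p under 0.05 over all 16905 genes. Lung had the most calls, 12 noncoding spliced genes higher in BS (2.51% of all genes tested were called) and 24 in DSE (6.64%). Kidney had 14 higher in BS (2.85%) and 7 in DSE (1.39%), and spleen 8 in BS (1.46%) and 13 in DSE (1.34%). Liver had 13 higher in BS (2.12%) and 5 in DSE (0.663%), and heart 11 in BS (1.54%) and 4 in DSE (0.296%). As shares of the 698 genes, the counts higher in DSE were above the share of all genes in spleen (1.86%), liver (0.716%) and heart (0.573%), and the count higher in BS heart was near it. The others were under it, with 1.72% and 3.44% for BS and DSE in lung, 2.01% for BS in kidney, 1.86% for BS in liver and 1.15% for BS in spleen. No test of these differences was made. As with the organ calls, low levels limit the fold on log2(TPM + 1), so these shares are not read as a result about these genes. The balance in kidney turned with a pseudocount of 0.1 TPM, to 30 higher in BS and 41 in DSE. That pseudocount gave 27 and 87 in lung, 14 and 28 in spleen, 27 and 25 in liver and 21 and 12 in heart, in the same order. With median-ratio scaling 7 genes were higher in DSE lung, 7 in DSE spleen and 11 in DSE liver, and without chromosome MT 7 in DSE heart. The kidney count higher in DSE was 15 without BS animal 3, 13 without BS animal 4 and 11 without DSE animal 3, and the liver count was 3 without DSE animal 3. For all of these settings the share of all genes is not given, so the counts are not set against other genes. Lung epithelium markers did not overlap between the groups in lung, at 56815 to 82676 TPM in BS and 37597 to 52050 TPM in DSE, and neither did adipocyte markers (82.1 to 89.1 TPM in BS, 40.8 to 66.1 TPM in DSE) or cardiac muscle markers (43.96 to 63.5 TPM in BS, 117 to 142 TPM in DSE). Smooth muscle markers did not overlap in heart, at 3377 to 4538 TPM in BS and 2391 to 3339 TPM in DSE, or in liver, at 99.3 to 212 TPM in BS and 71.5 to 78.7 TPM in DSE. Adipocyte markers did not overlap in spleen, at 8.12 to 12.7 TPM in BS and 5.85 to 7.32 TPM in DSE. Kidney tubule markers in kidney are given below. Adrenal cortex markers in heart (0.0914 to 0.149 TPM in DSE) and pancreas acinar markers in spleen (0.715 to 1.23 TPM in BS) also did not overlap, both higher in BS. The part of these markers in the calls was not tested. Over organs, on each animal's mean, 7 genes were higher in BS (1.02%) and 1 in DSE (0.367%).

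Of the 77 noncoding spliced genes called within an organ, 61 (79.2%) were called in 1 organ, 6 in 2, 5 in 3, 2 in 4 and 3 in all 5. Of the 2626 genes of any kind so called, 2049 (78.0%) were called in 1 organ. A call in 1 organ is no test of a difference between organs. The difference between the pig groups varied between organs in 73 of the 698 genes (10.5%) by limma's interaction test, against 8.40% of all genes tested. The fit shares 1 estimate of the spread over organs, which is narrow for a gene near 0 in most of them. Genes were named within an organ because they were called and their groups did not overlap, so the lack of overlap given below is a description.

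One gene was present in every BS library and in no DSE library. ENSSSCG00000037986 (chromosome 6, 53080236 to 53080657) is a model of 420 nt without an intron, on the same strand inside CCDC9, so their reads cannot be told apart. In lung the BS animals had 21.4, 20.3, 37.1 and 30.2 TPM, in kidney 28.9, 14.9, 16.5 and 19.9 TPM, in spleen 15.9, 12.9, 12.5 and 11.3 TPM, in heart 9.31, 11.9, 7.32 and 11.2 TPM and in liver 7.43, 7.72, 5.04 and 6.12 TPM. All 20 DSE libraries were listed at 0. The limma adjusted p over organs was 4.36e-09, and no fold is given against a group at 0.

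A pair of genes on the unplaced sequence AEMK02000489.1 was also higher in BS in all 5 organs. ENSSSCG00000056698 (4604 to 46400), which holds the gene of miR-6782, and ENSSSCG00000041461 (40070 to 46408) overlap on opposite strands, so their reads cannot be told apart. In spleen the first had 364, 178, 230 and 433 TPM in BS and 16.9, 25, 35.3 and 16.2 TPM in DSE. In liver it had 50.2, 37.1, 39.9 and 33.1 TPM in BS and 8.30, 31.6, 20.2 and 17.2 TPM in DSE, the smallest gap of the 5 organs, again without overlap. Over organs its log2 difference was 2.80 ± 0.14 (SE; limma adjusted p = 7.03e-06), and that of ENSSSCG00000041461 was 2.78 ± 0.15 (adjusted p = 7.03e-06).

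Genes that hold small nucleolar or Cajal body RNAs were called in both directions. ENSSSCG00000045735, the host of SNORA9 upstream of MYO1G, had 142, 37.2, 141 and 40.7 TPM in liver of the BS animals and 24.7, 18.1, 27.4 and 22 TPM in liver of the DSE animals. The same animals, BS 1 and BS 3, were far above the others in liver, kidney, heart and spleen, while all 4 BS animals were above all 4 DSE animals in liver. Over organs the log2 difference was 1.46 ± 0.39 (SE; limma adjusted p = 0.0101), and without a filter on low values the limma adjusted p was 0.0646. ENSSSCG00000047853, which holds SCARNA15 and the gene of miR-1839, was the only gene called higher in DSE over organs. In heart BS had 1.05, 0.444, 0.302 and 0.445 TPM and DSE 2.36, 2.43, 1.62 and 2.80 TPM, without overlap. Its log2 difference over organs, -1.0 ± 0.13 (SE; limma adjusted p = 0.000274), sat at the 2-fold limit and fell under it without DSE animal 4 (-0.96), and no gene was called with median-ratio scaling or without BS animal 2, BS animal 3 or DSE animal 2.

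In heart ENSSSCG00000043612, the gene found in no other organ, had 1.0, 6.22, 0.946 and 1.63 TPM in BS and 30.7, 27.6, 18.8 and 20.4 TPM in DSE. The groups did not overlap, and the log2 difference was -3.08 ± 0.21 (SE; limma adjusted p = 1.33e-12). This SE and p use the spread shared over organs, narrowed by libraries at 0 outside heart, and do not measure the spread among hearts. ENSSSCG00000054996, 65.7 kb upstream of INPP4B, an inositol lipid phosphatase gene, had 0.0618, 0.0259, 1.06 and 0.0732 TPM in BS heart and 1.84, 5.91, 1.43 and 3.14 TPM in DSE heart. In kidney ENSSSCG00000044577, a gene of 10 exons enriched in that organ, had 5.46, 1.38, 1.82 and 2.55 TPM in BS and 12.8, 5.65, 15 and 6.21 TPM in DSE, with 5.46 and 5.65 TPM as the nearest values of the groups. ENSSSCG00000044255, divergent from GATD3, had 1.28, 1.1, 2.14 and 1.05 TPM in BS kidney and 7.24, 4.32, 4.57 and 6.27 TPM in DSE kidney. Kidney tubule markers did not overlap either, at 7129 to 9695 TPM in BS and 5534 to 6091 TPM in DSE, and their part was not tested. They were lower in DSE, where both of these genes were higher.

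In liver a pair of adjacent genes on the same strand of chromosome 12 was higher in BS. ENSSSCG00000053426, enriched in liver, had 23.3, 39.95, 25.8 and 47.3 TPM in BS and 18.4, 7.01, 7.53 and 12.3 TPM in DSE (log2 difference 1.55 ± 0.18, SE; limma adjusted p = 1.08e-07). Here too the SE and p use the spread shared with organs where the gene was near 0. ENSSSCG00000055843 had 4.71, 0.0741, 2.18 and 7.13 TPM in BS and 0.0151, 0.0143, 0 and 0 TPM in DSE. Neither pair of ranges overlapped, though BS animal 2 was near the DSE animals for the second gene. ENSSSCG00000055303, higher in DSE liver at 1.96, 2.33, 5.55 and 0.960 TPM against 0.636, 0.709, 0.721 and 0.180 TPM, was a kidney-enriched gene, at 10.3 ± 3.29 TPM there (SD, n = 8). Its liver difference fell under 2-fold without BS animal 4 (log2 difference -0.99) or DSE animal 3 (-0.80). At the place of ENSSSCG00000055303 RefSeq has a protein-coding gene.

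A gene of chromosome 7 changed its direction between organs. ENSSSCG00000058610 (20781922 to 20785616) had 32.4, 3.84, 43.8 and 126 TPM in BS lung and 0.937, 0.487, 1.39 and 0.466 TPM in DSE lung. In liver it had 1.07, 1.88, 0.642 and 1.44 TPM in BS and 6.02, 4.04, 5.75 and 5.21 TPM in DSE. The groups overlapped in neither organ, and the difference between organs passed (limma interaction, adjusted p = 1.07e-05). The liver call was lost without BS animal 1, BS animal 3, DSE animal 1, DSE animal 3 or DSE animal 4 left out 1 at a time, while the lung call held.

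Higher in DSE lung was C3AR1 (ENSSSCG00000023868, without an intron in this annotation), with 18.6, 19.2, 19.4 and 39.7 TPM in BS and 98.1, 45.3, 97.1 and 74.8 TPM in DSE (log2 difference -1.68 ± 0.32, SE; limma adjusted p = 8.26e-05). The groups did not overlap, and the highest BS library, that of animal 4, was the one with the excess of erythroid markers. ENSSSCG00000044784, upstream of LY6E and at the place of a RefSeq protein-coding gene, had 0.410, 0.0728, 0.388 and 0.397 TPM in BS lung and 1.83, 16.4, 0.970 and 7.45 TPM in DSE lung. In spleen ENSSSCG00000049296, found almost only there, had 24.3, 33.2, 1.61 and 3.29 TPM in BS and 103.0, 47.0, 59.6 and 57.3 TPM in DSE (log2 difference -2.71 ± 0.41, SE; limma adjusted p = 1.09e-05). This SE and p use the spread shared over organs, narrowed by libraries near 0 outside spleen, and do not measure the spread among spleens. The groups did not overlap, and the BS animals fell into a higher and a lower pair. ENSSSCG00000046209, 87.3 kb from TRHDE, was listed at 0 in BS spleen and had 3.77, 23.9, 0.856 and 7.03 TPM in DSE spleen.

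**Figure D5:**
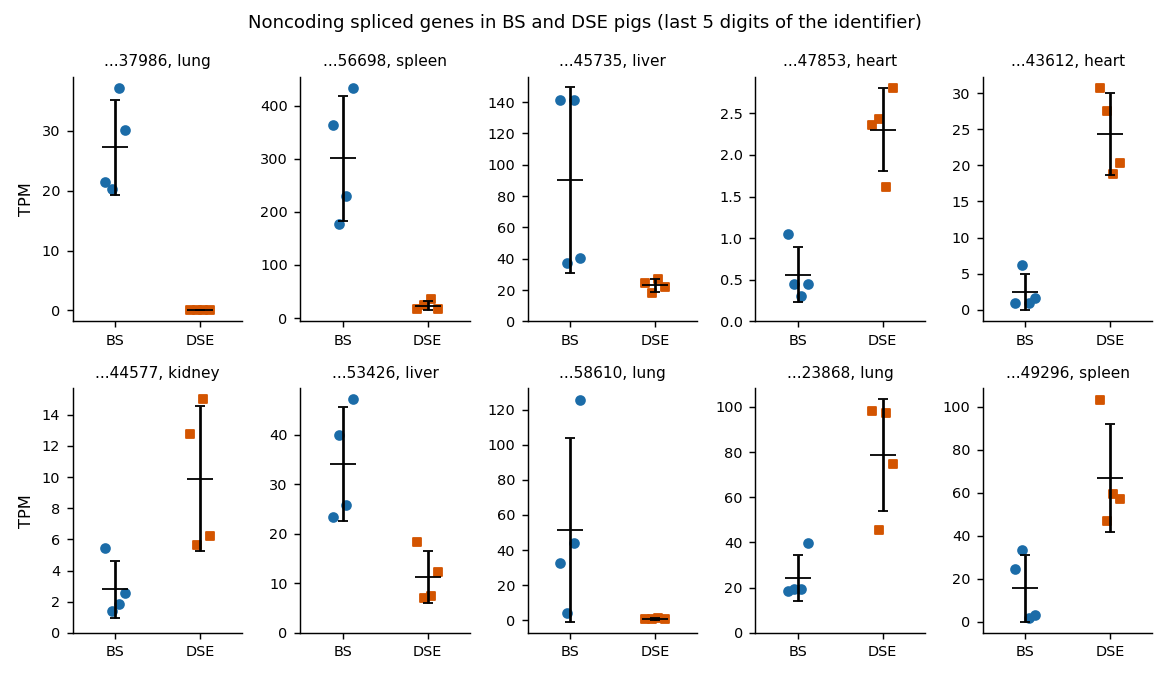
TPM (vertical axis, linear, scale set for each panel) of 10 noncoding spliced genes in 1 organ each, for 4 BS (circles) and 4 DSE animals (squares), with mean ± SD. Panels are titled by the last digits of the identifier and the organ. In none of the 10 panels do the groups overlap, and ENSSSCG00000037986 is at 0 in all DSE libraries.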

How the data were processed

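Gene levels were deposited by the authors as TPM for 35798 genes in the short-read libraries, and full-length reads as a count per transcript in the long-read libraries. Exon coordinates on susScr11 came from the deposited annotation, which names rtracklayer 1.58.0 in its header. STAR 2.7.10a and Salmon 1.10.1 appear in the submitters' processing notes, with no step given. Another 20 columns of gene TPM and 5 of full-length counts match no label and were not used, and samples labelled DT were not analysed here. Some genes that the rules name are not reported here. Short-read depth is unknown, so no interval was given for a TPM value. Sequences were not used, so splice sites and reading frames were not examined.

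The genes, gene lists and tests were chosen with earlier results of these data known. Tests across genes used limma 3.58.1 (R 4.3.3) with a trended prior variance on log2(TPM + 1), and Benjamini-Hochberg adjustment over every gene whose mean reached 1 TPM in some organ of a pig group. The code was tested on simulated data. Signed differences are BS minus DSE. Replicates are separate pigs by their titles. Deviations of the organs of 1 animal from their group means had a mean correlation per animal of 0.0243 to 0.217. Full-length reads were summed over a gene's transcripts, and RefSeq genes were matched by reciprocal overlap of at least 50% of the span, without strand. Genes were named by rule: the 5 enriched genes per organ with the largest fold among those with 5 TPM, the highest, the most even, those with the largest differences between pig groups over organs and within each organ without overlap, neighbours of listed factors, and extremes of structure and full-length reads. Small RNA hosts and the pig values of ENSSSCG00000053426 were added after values were seen. Alternatives were a pseudocount of 0.1 TPM, no filter, median-ratio scaling, no chromosome MT, a replicate block, leaving out each animal, and genes without overlap. Genes with a gap of at least 30 bp were chosen as an alternative after seeing the data. Tables and plots used pandas 2.3.3 (Python 3.11.15), matplotlib 3.10.9 and numpy 2.4.6.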

Additional observations from a re-analysis of the deposited data

Results flagged for a closer look

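In groups of 4 or 8 libraries, 1 library stood apart from the rest by Dixon's test in 7 of 75 groups examined, and chance alone flags about 1 in 20. ENSSSCG00000055583 in heart had 89.3 TPM in BS animal 4, with the next library at 49.8 TPM. ENSSSCG00000006793 in lung had 57.2 TPM in BS animal 4, with the next at 19.8 TPM. Among the BS hearts, ENSSSCG00000043612 had 6.22 TPM in animal 2, with the next at 1.63 TPM, and ENSSSCG00000054996 had 1.06 TPM in animal 3, with the next at 0.0732 TPM. Among the BS livers, ENSSSCG00000055303 had 0.180 TPM in animal 4, with the next at 0.636 TPM. Among the BS lungs, ENSSSCG00000044784 had 0.0728 TPM in animal 2, with the next at 0.388 TPM, and C3AR1 (ENSSSCG00000023868) had 39.7 TPM in animal 4, with the next at 19.4 TPM.

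Of the 16 genes named between BS and DSE, 12 had a difference that varied between organs by limma's interaction test, adjusted over all genes, as did 8.40% of all genes tested. Naming genes by a large difference within 1 organ favours such a result, so this count supports nothing. The adjusted p was 2.55e-09 for ENSSSCG00000043612 and 3.92e-06 for ENSSSCG00000037986, which is at 0 in all DSE libraries, so that its difference follows its level in BS. It was 1.07e-05 for ENSSSCG00000058610, whose sign turned between lung and liver. It was 0.000553 for ENSSSCG00000044577, 0.00303 for ENSSSCG00000049296, 0.00386 for ENSSSCG00000044784, 0.00438 for ENSSSCG00000055843 and 0.00516 for ENSSSCG00000054996. It was 0.0103 for ENSSSCG00000046209, 0.0145 for ENSSSCG00000023868, 0.0220 for ENSSSCG00000056698 and 0.0374 for ENSSSCG00000055303. Most of these genes were measured at 1 TPM or more in only some organs.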

How the results depend on the processing

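The 26 organ differences of named genes kept their direction and a limma adjusted p under 0.05 under every alternative, and so did 23 of 25 named pig-group differences. The fold of the call was lost as well in 3 organ differences, all in lung with median-ratio scaling, and in those of ENSSSCG00000047853 and ENSSSCG00000055303 between pig groups, as given with each gene. Adjusted p was lost for ENSSSCG00000045735 over organs without a filter on low values (limma adjusted p = 0.0646) and ENSSSCG00000058610 in liver without a filter (0.0553) or without BS animal 1, BS animal 3, DSE animal 1, DSE animal 3 or DSE animal 4 (0.0559 to 0.0700). Counts moved more. With a pseudocount of 0.1 TPM liver and spleen had 40 enriched genes each, kidney 32, lung 25 and heart 22. Genes higher in BS and in DSE then numbered 21 and 12 for heart, 30 and 41 for kidney, 27 and 25 for liver, 27 and 87 for lung, 14 and 28 for spleen, and 20 and 19 over organs. Median-ratio scaling gave 15 enriched genes in heart, 21 in liver and 2 in lung, and 11 genes higher in DSE in liver, 7 in lung, 7 in spleen and 0 over organs. Without chromosome MT, 7 genes were higher in DSE in heart and 2 over organs, and without a filter 3 in liver. Leaving out 1 animal at a time, genes higher in DSE numbered 7 to 15 in kidney, 3 to 6 in liver and 0 to 3 over organs. The BS minus DSE difference in the share of TPM, which passed in no organ, ran from -0.00524 (without DSE animal 3) to 0.0145 percentage points in kidney and from -0.0570 to 0.000699 (without BS animal 2) in lung. With only genes that have a gap of at least 30 bp, chosen after seeing the data, it was -0.00694 in kidney. Within 10 kb of a coding gene lay 2003 genes by gene bodies and 1074 by start sites. The replicate block took no named limma adjusted p over 0.05 and moved no count by more than 1.5 times (liver genes higher in BS, 11). For organ differences it was a term for each animal. For pig-group differences it was a term for each replicate number. Within organs that term does not account for animals shared between organs, so it says nothing on their part in the pig-group and interaction results. Deviations of BS and DSE animals with the same number had correlations of -0.234 to 0.0740. Those of organs of 1 animal had means per animal of 0.0243 to 0.217. The first are single correlations with both signs, and the second are means of 10 organ pairs, all above 0. Their ranges are therefore not set against each other. Whether animals with the same number share more than a number was not tested. The cause of each change was not tested. Depth is unknown, so counting error at low TPM cannot be given.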
